A study of Mus musculus with 10 samples.

Results

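The integrated stress response and the unfolded protein response were followed through 10 genes chosen by symbol: Atf4, Ddit3, Xbp1, Trib3, Asns, Chac1, Sesn2, Hspa5, Dnajb9 and Herpud1. The count tables held 48709 genes; all 10 were present, and all 10 were among the 16884 genes with enough counts to be tested. Polyadenylated RNA came from mouse hippocampal neurons in primary culture that were given lipid nanoparticles on day 10 in vitro and harvested 48 h later. The nanoparticles carried an inhibitor of the microRNA miR-409-5p (antimir409, n = 4 libraries), an inhibitor of miR-501-3p (antimir501, n = 4) or scramble RNA (control, n = 2). Both inhibitors are together called the anti-miRs. Every group received nanoparticles, so control is a particle control and not an untreated culture. The labels give neither the strain nor the age of the animals and do not say whether same-group libraries stem from separate cultures, so the p-values reflect library-to-library spread, which may be technical.

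The integrated stress response starts when a kinase phosphorylates the translation factor eIF2: general protein synthesis slows while the mRNA of the transcription factor ATF4 is translated more, and ATF4 switches on genes of amino acid supply, redox balance and, with CHOP, cell death. The unfolded protein response starts in the endoplasmic reticulum (ER), where the sensors PERK, IRE1 and ATF6 are released from the chaperone BiP. PERK feeds into eIF2, IRE1 splices the Xbp1 mRNA, and cleaved ATF6 and spliced XBP1 raise ER chaperones and the machinery that degrades misfolded proteins. In hippocampal neurons, eIF2 phosphorylation is also known for its part in synaptic plasticity and memory. The values here are mRNA levels: eIF2 phosphorylation, ATF4 translation and Xbp1 splicing are not measured by counts per gene.

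The sequences of the inhibited microRNAs are shown because a gene with a matching site in its 3' untranslated region (3' UTR) could be bound directly. They come from RefSeq (GRCm38.p6), written 5' to 3' with the seed, bases 2 to 8, in capitals. miR-409-5p lies at chr12:109743172-109743194 on the plus strand and miR-501-3p at chrX:7241270-7241291 on the minus strand, and their seeds differ.
miR-409-5p: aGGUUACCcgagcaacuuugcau
miR-501-3p: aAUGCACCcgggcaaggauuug
In the longest annotated 3' UTRs, 1 of the 10 genes held a site for miR-409-5p and 1 held a site for miR-501-3p. Of 14231 tested genes with a 3' UTR, 10.5% and 13.6% held such a site, so a site was no more frequent among the 10 genes. The matching stretches are printed 5' to 3' with the site in capitals. Chac1 has a match to the miR-409-5p seed without its last base, followed by A, from base 294 of its 3' UTR, and Hspa5 has a full match to the miR-501-3p seed from base 877.
Chac1, miR-409-5p site: cctctggtatGTAACCAgaatcccc
Hspa5, miR-501-3p site: atctgaggctGGTGCATgctcagtg
A match is a description of letters and does not show binding, and the values of both genes under both inhibitors are given with their groups below.

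Library totals ranged over 22254788 to 32096808 counts, and the 10 genes had between 48 counts (Trib3) and 12894 counts (Hspa5) per library. Summed neuronal markers (12 of 12 tested, Map2 highest) came to 8411 to 8762 CPM (counts scaled to a common library depth) under antimir409, 8404 to 8832 under antimir501 and 8147 to 8260 in control. The cultures also held glial RNA: 10 astrocyte markers, led by Slc1a2, summed to 4549 to 4807 CPM under antimir409, 4390 to 4616 under antimir501 and 4054 to 4181 in control. Single markers went both ways. By the test given below, 6 neuronal markers were called higher and 5 lower under antimir409, and 5 and 5 under antimir501. Of the astrocyte markers 5 were called higher and 1 lower under antimir409, and 3 and 3 under antimir501. Of all tested genes 15.6% were called higher and 12.2% lower under antimir409, and 17.6% and 15.4% under antimir501. The 8 microglia markers, 4 of which could not be tested, stayed at 13.7 to 18.2 CPM in all libraries. Summed markers of the oligodendrocyte lineage (351 to 520 CPM in the anti-miR libraries, 456 to 636 in control), of fibroblasts and vessels (351 to 569, against 385 to 557 in control) and of proliferating cells (191 to 283, against 210 to 285 in control) overlapped between the groups, and no marker was at 0 in all libraries. The part of the shifts in summed neuronal and astrocyte markers in any result was not tested. In bulk RNA fewer cells of a type and less RNA per cell cannot be told apart. Mitochondrial transcripts took 3.33% to 3.95% of the counts in the anti-miR libraries and 2.59% and 2.78% in control. Control also stood apart in the slope of counts on transcript GC content, described below.

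Per kilobase of exon, Hspa5, Atf4 and Asns had the highest levels in every group and Trib3 the lowest. In RPKM (counts scaled by exon length and library depth), Hspa5 averaged 96.6 under antimir409, 96.6 under antimir501 and 101 in control, and Atf4 averaged 70.7, 71.8 and 79.9 in these groups. Asns followed with 58.0 RPKM under antimir409, 58.2 under antimir501 and 59.6 in control, and Xbp1 with 24.4, 25.2 and 25.6. Herpud1 had 16.5, 16.4 and 18.5 RPKM in the same groups, Ddit3 12.8, 13.1 and 15.1, and Trib3 1.22, 1.44 and 1.63. The stress chaperone and the ATF4 mRNA were thus abundant, Hspa5 standing at the 98.3th percentile of the tested genes in control, while the ATF4 and CHOP target Trib3 stood at the 35.4th. The place of Dnajb9 in this order differed between the groups. It averaged 10.6 RPKM under antimir409, 11.8 under antimir501 and 7.31 in control, beside 7.16, 7.45 and 9.32 RPKM for Chac1 and 10.6, 10.1 and 12.5 for Sesn2. Under antimir409 its 8.72 to 11.9 RPKM overlapped the 9.90 to 11.2 RPKM of Sesn2, under antimir501 its 10.6 to 12.5 overlapped the 9.08 to 12.4 of Sesn2 and the 12.4 to 14.2 of Ddit3, and in control it stood below both Chac1 (8.18 to 10.5) and Sesn2 (11.9 to 13.1). In control no neighbours in the order overlapped.

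Against control, Dnajb9 rose and Atf4, Ddit3, Chac1 and Herpud1 fell under each anti-miR, while Hspa5, Xbp1, Trib3, Asns and Sesn2 did not pass the test in either comparison (edgeR quasi-likelihood, two-sided, Benjamini-Hochberg adjusted p of 0.05 over all tested genes). Thus 1 of 10 genes was called higher and 4 of 10 lower under antimir409, where 15.6% of all tested genes were called higher and 12.2% lower. Under antimir501 1 of 10 was also higher and 4 of 10 lower, against 17.6% and 15.4% of all tested genes. The share of the 10 genes called higher was near the background, and the share called lower was above it. The median log2 fold change of the 10 genes was -0.17 under antimir409 and -0.16 under antimir501, beside -0.012 for all tested genes in both. Both comparisons use the same 2 control libraries, so their likeness is not independent. A fit without either control library leaves 1 control. Such a fit alone cannot tell lost replication from reliance on the library left out. Without control replicate 1 none of the 10 genes was called under antimir409, and Dnajb9 alone was called under antimir501; the numbers of all genes called were then 1302 and 1800, against 4696 and 5579 with all libraries. With total-count scaling 2193 of all genes were called higher and 3209 lower under antimir409 (2634 and 2062 with TMM), and 2452 higher and 3779 lower under antimir501 (2974 and 2605 with TMM), while the 10 genes then held 1 higher and 6 lower calls in each comparison.

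**Figure D1:**
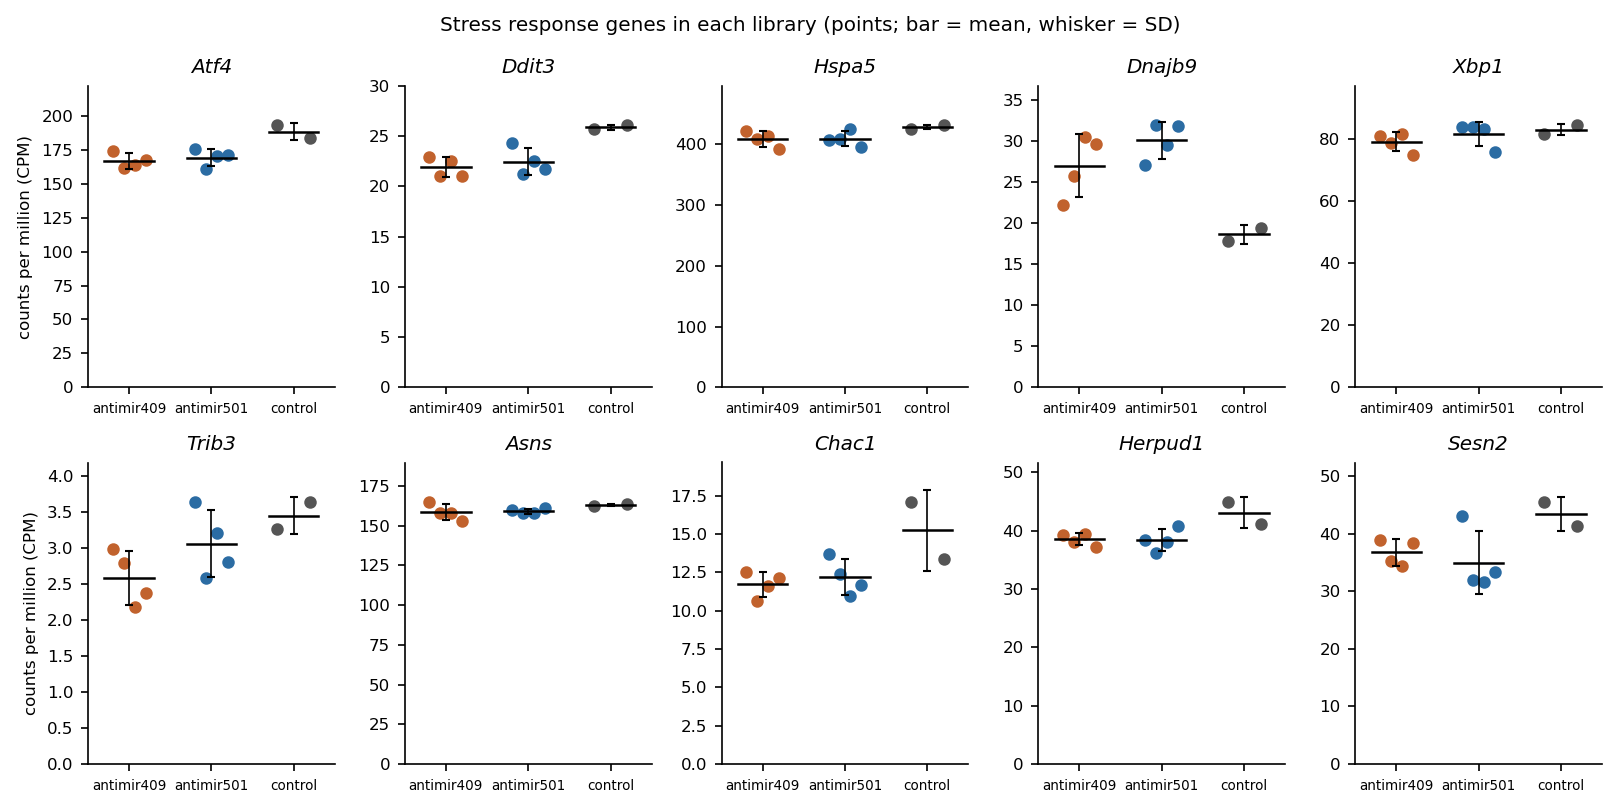
Each panel plots 1 gene in CPM (counts scaled to library depth) in every library (points, y axis from 0), with the group mean (bar) and SD (whisker) for antimir409 (n = 4), antimir501 (n = 4) and control (n = 2). Dnajb9 lies above both control libraries in all 8 anti-miR libraries, Atf4, Ddit3 and Herpud1 lie below both, and Xbp1 overlaps.

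Among the transcription factors, Atf4 and Ddit3 were lower under both anti-miRs and Xbp1 overlapped control. Atf4 (ENSMUSG00000042406, mm10 chr15:80255184-80257541, plus strand), the central effector of the integrated stress response, had 174, 161, 164 and 168 CPM in the antimir409 libraries, 175, 161, 170 and 171 CPM in the antimir501 libraries and 193 and 184 CPM in control. All 8 anti-miR libraries lay below both controls. The log2 fold change was -0.18 ± 0.04 (SE) under antimir409 (edgeR adjusted p = 0.00595) and -0.15 ± 0.04 under antimir501 (edgeR adjusted p = 0.0106), that is 0.885 and 0.899 times the control level. Both calls ended without control replicate 1 (edgeR adjusted p = 0.172 and 0.236), and the call under antimir501 also ended without its replicate 2 (0.0514). Both also ended when the trend of counts on GC content and transcript length was removed, as described below.

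Ddit3 (ENSMUSG00000025408, chr10:127290774-127296288, plus strand) encodes CHOP, the transcription factor that acts downstream of ATF4 in prolonged stress. It had 23.0, 21.1, 22.5 and 21.0 CPM under antimir409, 24.4, 21.3, 22.5 and 21.7 CPM under antimir501 and 25.7 and 26.1 CPM in control. The groups did not overlap, the nearest anti-miR library being antimir501 replicate 1. Its log2 fold changes were -0.24 ± 0.07 (edgeR adjusted p = 0.01) and -0.21 ± 0.06 (edgeR adjusted p = 0.0208). With either control library left out the fold changes under antimir409 were -0.24 and -0.23 but no longer passed (edgeR adjusted p = 0.0975 without control replicate 1 and 0.0761 without replicate 2). Those under antimir501 had adjusted p = 0.138 and 0.12 in the same fits, and 0.0732 and 0.0577 in edgeR without antimir501 replicate 2 or 4. In the authors' deposited table the adjusted p for Ddit3 was 0.0223 under antimir409 and 0.0538 under antimir501. The exons of Ddit3 share 68 of 1713 bases with Mars on the other strand, and the kit does not mark strand, so reads from these bases cannot be told apart.

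Xbp1 (ENSMUSG00000020484, chr11:5520659-5525893, plus strand), whose mRNA is the splicing substrate of IRE1, had 80.9, 78.7, 81.8 and 75.0 CPM under antimir409, 83.8, 83.8, 83.3 and 75.8 CPM under antimir501 and 81.7 and 84.4 CPM in control. Both anti-miR groups overlapped control. The log2 fold changes of -0.07 (95% interval -0.18 to 0.03) and -0.02 (-0.13 to 0.08) did not pass the test. Spliced and unspliced Xbp1 are summed in a count per gene.

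Of the genes that ATF4 and CHOP are known to switch on, Chac1 fell and Trib3, Sesn2 and Asns did not pass the test. Chac1 (ENSMUSG00000027313, chr2:119351229-119354381, plus strand) encodes an enzyme that breaks down glutathione. It had 12.5, 10.6, 11.6 and 12.1 CPM under antimir409, 13.7, 12.4, 11.0 and 11.7 CPM under antimir501 and 17.1 and 13.4 CPM in control. The 2 control libraries were further apart than the 4 libraries of either anti-miR, and antimir501 replicate 1 lay between them. Its log2 fold change was -0.38 ± 0.10 under antimir409 (edgeR adjusted p = 0.0107) and -0.32 ± 0.10 under antimir501 (edgeR adjusted p = 0.0216). Without control replicate 1 the values were -0.18 (edgeR adjusted p = 0.36) and -0.12 (0.539). The call under antimir501 also ended without its replicate 3 (edgeR adjusted p = 0.0599) or 4 (0.0604). Both calls also ended when the trend on GC content and transcript length was removed. Chac1 holds the site for miR-409-5p shown above, and its level was lower under both inhibitors. A part of this site was not tested.

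Trib3 (ENSMUSG00000032715, chr2:152337422-152344032, minus strand) encodes a pseudokinase that restrains ATF4 and CHOP in turn. It was the lowest of the 10 genes, with 2.99, 2.80, 2.18 and 2.38 CPM under antimir409, 3.65, 2.58, 3.21 and 2.81 CPM under antimir501 and 3.27 and 3.64 CPM in control. All antimir409 libraries were below both controls, and the antimir501 libraries overlapped them. The log2 fold changes of -0.41 ± 0.16 (edgeR adjusted p = 0.0596) and -0.18 ± 0.15 (edgeR adjusted p = 0.412) did not pass. Without replicate 1 of antimir409 or of antimir501, the value under antimir409 passed (edgeR adjusted p = 0.0363 and 0.0463).

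Sesn2 (ENSMUSG00000028893, chr4:132492032-132510501, minus strand) encodes sestrin 2, a leucine sensor that inhibits growth signalling. It had 38.9, 35.2, 34.4 and 38.4 CPM under antimir409, 43.0, 31.9, 31.6 and 33.3 CPM under antimir501 and 45.5 and 41.3 CPM in control. Replicate 1 of antimir501 lay among the controls, apart from the other 3 libraries of its group. The log2 fold changes were -0.24 ± 0.11 (edgeR adjusted p = 0.143) and -0.31 ± 0.11 (edgeR adjusted p = 0.055). Without that library the values were -0.23 under antimir409 and -0.42 under antimir501, and both passed (edgeR adjusted p = 0.00608 and 5.28e-05). Under antimir501 Sesn2 also passed with DESeq2 (adjusted p = 0.0126), with limma-voom (0.0356), with upper-quartile and total-count scaling (edgeR adjusted p = 0.037 and 0.034), without a filter on low counts (4.99e-05) and with the replicate number as a block (0.00237). Under antimir409 it passed without a filter (edgeR adjusted p = 0.00388), in a fit of these 2 groups alone (0.0142) and with the block (0.0297). After the trend on GC content and transcript length was removed it had -0.07 and -0.13 and did not pass. In the authors' deposited table the adjusted p for Sesn2 was 0.0135 under antimir409 and 0.159 under antimir501.

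Asns (ENSMUSG00000029752, chr6:7675169-7693254, minus strand), asparagine synthetase, is a standard readout of amino acid stress. Its counts varied least of the 10 genes, with 165, 158, 158 and 153 CPM under antimir409, 160, 158, 158 and 161 CPM under antimir501 and 163 and 164 CPM in control. The 4 libraries of antimir501 were below both controls by a small margin, and those of antimir409 overlapped them. The log2 fold changes were -0.04 (95% interval -0.12 to 0.04) and -0.03 (-0.11 to 0.05), so both intervals lie between -0.12 and 0.05.

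In the ER arm, the co-chaperone Dnajb9 rose, the degradation scaffold Herpud1 fell, and the chaperone Hspa5 did not pass the test. Hspa5 (ENSMUSG00000026864, chr2:34771970-34777547, plus strand) encodes BiP, which folds ER proteins and holds the 3 sensors inactive. It had 422, 408, 412 and 392 CPM under antimir409, 406, 407, 424.8 and 395 CPM under antimir501 and 425.5 and 431 CPM in control. Every anti-miR library was below both controls, the closest being antimir501 replicate 3. The log2 fold changes of -0.07 ± 0.04 (edgeR adjusted p = 0.206) and -0.07 ± 0.04 (edgeR adjusted p = 0.192) did not pass at the usual scaling. With total-count scaling they were -0.11 and -0.12 and both passed (edgeR adjusted p = 0.0447 and 0.0318). The site for miR-501-3p shown above is in Hspa5, and the fold change of Hspa5 was about the same under both inhibitors. A part of the site was not tested.

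Dnajb9 (ENSMUSG00000014905, chr12:44205559-44210326, minus strand) encodes ERdj4, a co-chaperone that delivers misfolded proteins to BiP, helps keep IRE1 inactive and is a known target of spliced XBP1. It had 22.2, 25.8, 30.5 and 29.6 CPM under antimir409, 27.1, 31.9, 29.5 and 31.8 CPM under antimir501 and 17.8 and 19.5 CPM in control. All anti-miR libraries lay above both controls, with replicate 1 lowest in each anti-miR group. The log2 fold change was 0.53 ± 0.12 under antimir409 (edgeR adjusted p = 0.00507) and 0.69 ± 0.11 under antimir501 (edgeR adjusted p = 0.000761), which is 1.45 times (95% interval 1.22 to 1.72) and 1.61 times (1.36 to 1.92) the control level. Without control replicate 1 the value under antimir409 was 0.48 and did not pass (edgeR adjusted p = 0.0769), while that under antimir501 was 0.64 and did (0.0211). In the authors' deposited table the adjusted p for Dnajb9 was 1.94e-05 under antimir409 and 5.86e-13 under antimir501. Dnajb9 has the lowest GC content of the 10 genes. Its log2 fold changes were 0.26 and 0.38, still called, when the trend on GC content and transcript length was removed.

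Herpud1 (ENSMUSG00000031770, chr8:94386438-94395377, plus strand) encodes a membrane protein that gathers the ER-associated degradation complex. It had 39.3, 38.1, 39.5 and 37.2 CPM under antimir409, 38.4, 36.2, 38.0 and 40.8 CPM under antimir501 and 45.0 and 41.2 CPM in control. The groups did not overlap, although antimir501 replicate 4 was close to control replicate 2. Its log2 fold changes of -0.16 ± 0.05 (edgeR adjusted p = 0.0356) and -0.17 ± 0.05 (edgeR adjusted p = 0.0252) stood near the threshold. DESeq2 did not call them (adjusted p = 0.0788 and 0.0542), and in the authors' deposited table the adjusted p for Herpud1 was 0.0906 and 0.073. Without control replicate 1 they were -0.08 and -0.09 (edgeR adjusted p = 0.489 and 0.429). Leaving out antimir409 replicate 2, 3 or 4 ended the first call (edgeR adjusted p = 0.0865, 0.0596 and 0.0896), and leaving out antimir501 replicate 2 or 3 ended the second (0.101 and 0.0527). Removal of the trend on GC content ended both.

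Counted by position alone, 7 of the 10 genes were below both controls in every antimir409 library (Atf4, Ddit3, Hspa5, Trib3, Chac1, Herpud1 and Sesn2) and 1 was above (Dnajb9). Of all tested genes 24% were below and 24.1% above in the same way. Under antimir501 5 genes were below (Atf4, Ddit3, Hspa5, Asns and Herpud1) and 1 above (Dnajb9), where 25.6% of all tested genes were below and 24.3% above.

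Promoter stretches are shown for the genes in which a response element was found in the 250 bases before the RefSeq start (GRCm38.p6; all 10 genes had an entry). The ER stress response element was searched as CCAAT, any 9 bases and CCACG, the UPR element as TGACGTGG and the C/EBP-ATF response element as TTGCATCA or TGATGNAAT, on both strands. The stretches run 5' to 3' on the plus strand with the matching letters in capitals: Hspa5 at chr2:34772020-34772048, Chac1 at chr2:119351038-119351067 and Herpud1 at chr8:94386306-94386335.
Hspa5, ER stress response element: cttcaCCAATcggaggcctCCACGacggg
Chac1, C/EBP-ATF response element: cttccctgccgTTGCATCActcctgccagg
Herpud1, C/EBP-ATF response element: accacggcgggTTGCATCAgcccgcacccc
The ER stress response element was in 0.113% of 32851 promoters and in 1 of the 10 genes, Hspa5, where it spans 65 to 47 bases before the start. TTGCATCA was in 0.791% of promoters and in 2 of the 10, at 193 to 186 bases before the start in Chac1 and 112 to 105 in Herpud1. Chac1 and Herpud1, which hold TTGCATCA, were called lower under both anti-miRs, as were Atf4 and Ddit3, in which no element was found. Of all tested genes 12.2% were called lower under antimir409 and 15.4% under antimir501. The calls of Chac1 and Herpud1 ended when the GC and length trend was removed, and a part of the element was not tested. The other 2 forms, in 0.563% (TGACGTGG) and 0.816% (TGATGNAAT) of promoters, matched none of the 10, which says only that these letters are not in this window.

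The fold changes of the 10 genes followed the GC content of their transcripts, as those of all genes did. Dnajb9 had the lowest GC content (40.6%) and was the gene that rose, while Trib3, Chac1 and Sesn2 had the highest (58.2%, 57.4% and 58.7%). Across the 10 genes Spearman's rho of GC content with log2 fold change was -0.72 under antimir409 and -0.64 under antimir501, beside -0.69 and -0.70 across all tested genes. These are descriptions across genes, which share the libraries. By library, the slope of log2 counts on GC content, per 10 points and relative to the mean over libraries, was 0.037, -0.008, -0.090 and -0.105 in antimir409 replicates 1 to 4, 0.009, -0.085, -0.091 and -0.127 in antimir501 replicates 1 to 4 and 0.263 and 0.197 in control replicates 1 and 2. Replicate 1, which had the highest slope in each group, was also the library with the least Dnajb9 in its group. The median GC content was 53.0% for the 10 genes and 49.5% for all tested genes.

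**Figure D2:**
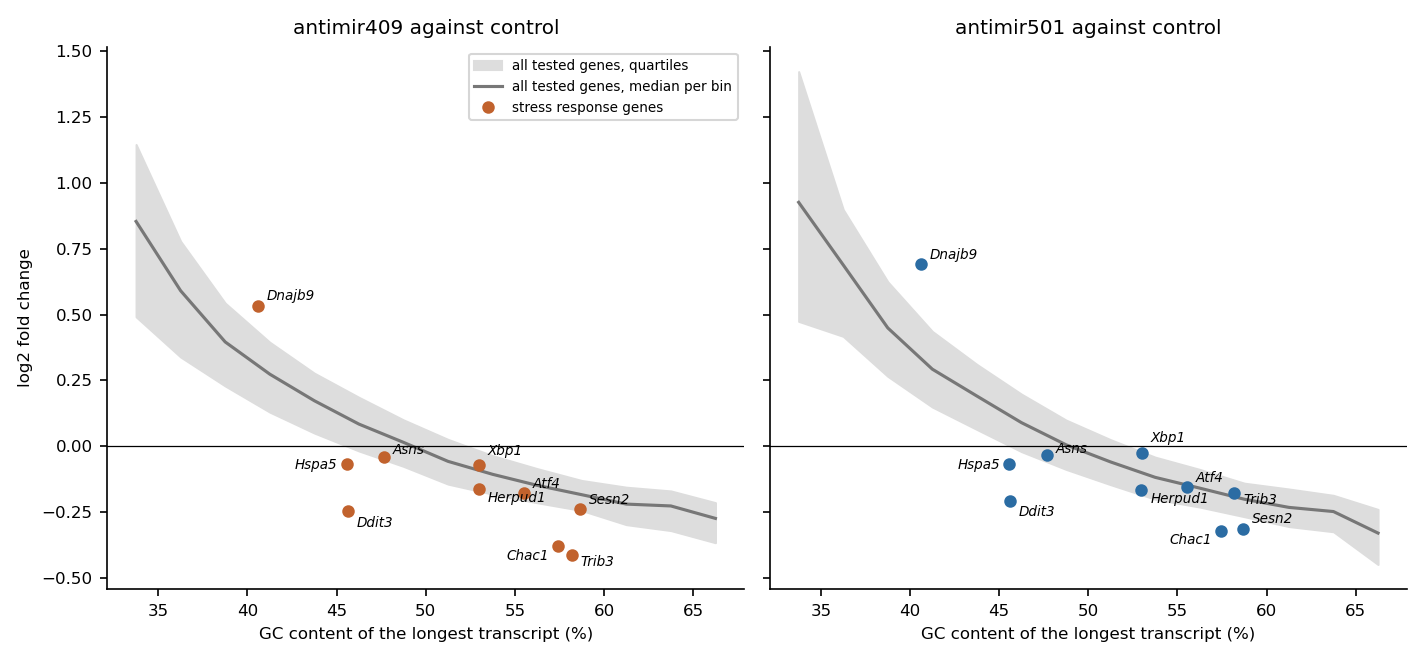
Each panel plots log2 fold change against control (y axis) over transcript GC content in percent (x axis), with the 10 stress response genes as labelled points, the median of all tested genes as a line and their quartiles as a grey band. Dnajb9 at 40.6% GC lies above the band, Hspa5 and Ddit3 at 45.6% GC lie below it, and Atf4 and Herpud1 lie in it.

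After the trend on GC content and transcript length was removed in each library, Dnajb9 was still called higher and Ddit3 still lower under both anti-miRs, and Hspa5 was called lower in addition. Dnajb9 then had log2 fold changes of 0.26 ± 0.08 under antimir409 (edgeR adjusted p = 0.0363) and 0.38 ± 0.07 under antimir501 (edgeR adjusted p = 0.00195). With the replicate number as a block in the same fit the call of Dnajb9 under antimir409 ended (0.20, edgeR adjusted p = 0.0541). Ddit3 had -0.28 ± 0.06 (edgeR adjusted p = 0.00546) and -0.26 ± 0.06 (0.00677). Hspa5 had -0.17 ± 0.04 (edgeR adjusted p = 0.00343) and -0.18 ± 0.04 (0.00156), against -0.07 and -0.07 before the removal, which did not pass. Ddit3 and Hspa5 have less GC than most of the 10 genes, and their values did not shrink. Atf4 moved to -0.01 and 0.02 (edgeR adjusted p = 0.946 and 0.865), Herpud1 to -0.03 and -0.03 (0.833 and 0.773) and Chac1 to -0.17 and -0.11 (0.332 and 0.538), so these 3 calls ended. The 10 genes thus held 1 higher and 2 lower call in each comparison, where the corrected fit called 3.99% of all genes higher and 3.46% lower under antimir409, and 5.51% and 4.63% under antimir501. The median log2 fold change of the 10 genes was then -0.058 and -0.043.

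**Figure D3:**
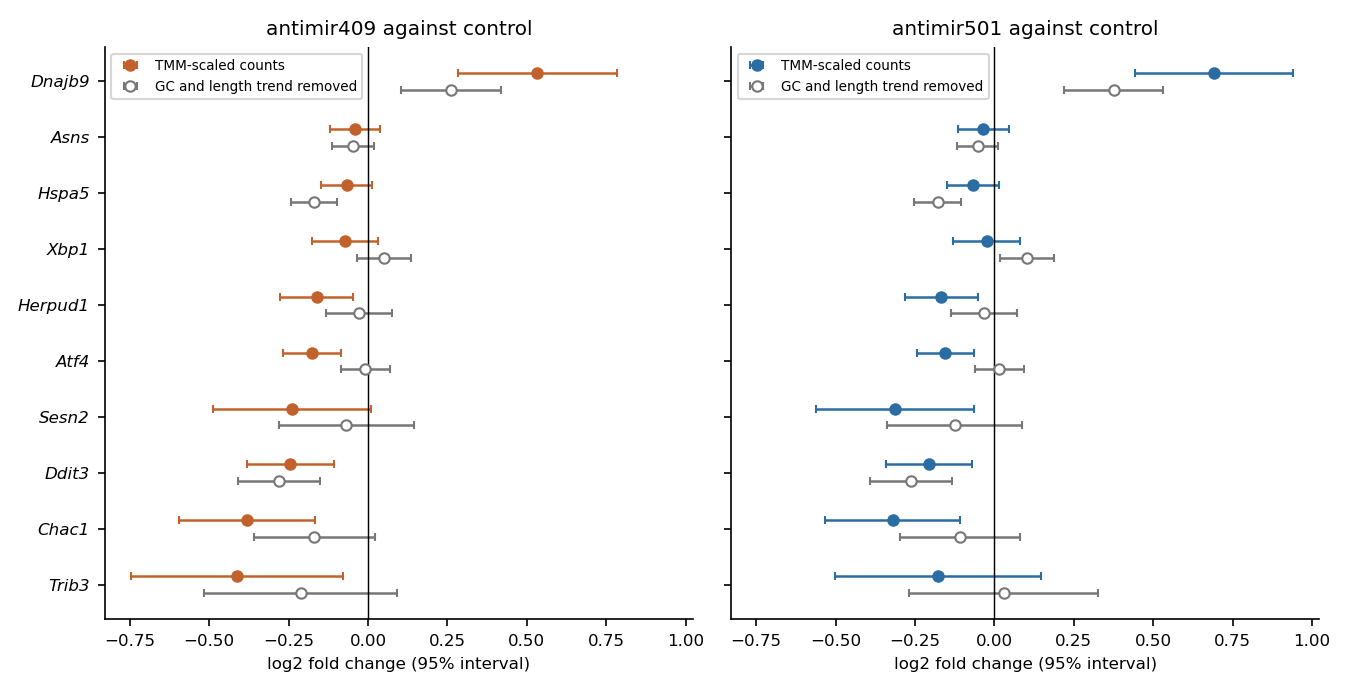
For each of the 10 genes the log2 fold change against control (x axis, whiskers are 95% intervals) is plotted under antimir409 (left panel) and antimir501 (right panel), from TMM-scaled counts (filled) and after the GC and length trend was removed (open). The intervals of Dnajb9 and Ddit3 leave out 0 in both versions, those of Atf4 and Herpud1 include 0 after the removal, and those of Hspa5 leave out 0 after it.

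The anti-miRs were also compared with each other. None of the 10 genes was called between antimir409 and antimir501, and of all 16884 tested genes 0 (0%) were called by edgeR. An unadjusted edgeR p under 0.05 was found for 992 of the 16884, where chance alone gives about 1 in 20. DESeq2 called 3 genes and limma-voom 0. The smallest p among the 10 genes belonged to Trib3 and Dnajb9. Trib3 averaged 2.59 ± 0.37 CPM under antimir409 and 3.06 ± 0.47 under antimir501 (SD, n = 4 each), a log2 difference of -0.23 (95% interval -0.52 to 0.05). Dnajb9 averaged 27.0 ± 3.79 and 30.1 ± 2.28 CPM, a log2 difference of -0.16 (-0.35 to 0.04; edgeR adjusted p = 0.872). The groups overlapped for both genes. The intervals were narrowest for Asns (-0.07 to 0.06) and Hspa5 (-0.07 to 0.07), and for Sesn2 the interval was -0.14 to 0.28. These intervals bound the differences and do not show that the inhibitors act alike. With the replicate number as a block, 252 of all genes (1.49%) were called and again none of the 10.

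Within groups 6 of the 10 genes varied less than the median gene, and Dnajb9 varied against the others. These 6 genes stood at percentiles 81 to 98.3 of the tested genes by RPKM in control, and genes were not matched for level. The residual SD of log2 CPM ran from 0.031 for Asns and 0.041 for Hspa5 to 0.158 for Dnajb9 and 0.198 for Trib3, while the median of all tested genes was 0.097. After removal of the group means, Pearson's r over the 10 libraries was above 0 for 31 of the 45 pairs and above 0.5 for 12, with a median of 0.26. The highest were Hspa5 with Xbp1 (0.79) and Chac1 with Sesn2 (0.76). Atf4 ran with Sesn2 (0.71), Ddit3 (0.63) and Chac1 (0.60). Dnajb9 had negative r with each of the other 9 genes, lowest with Trib3 (-0.83), Asns (-0.68) and Atf4 (-0.64). These values describe 10 libraries that share depth and GC slope, and the part of either was not tested.

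**Figure D4:**
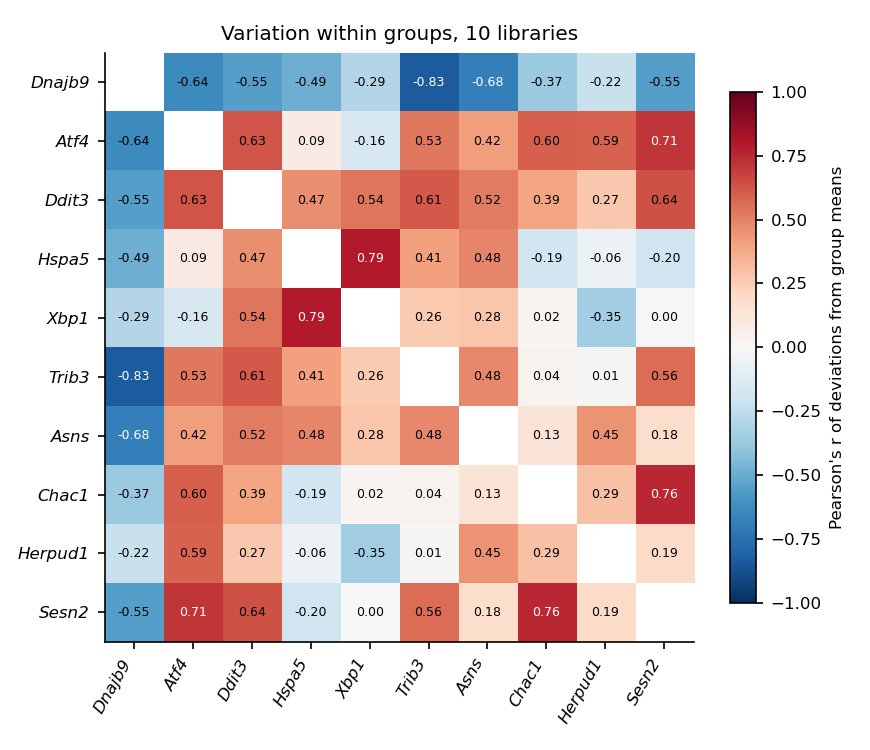
The heat map gives Pearson's r between each pair of the 10 genes (both axes) for deviations of log2 CPM from group means over 10 libraries, from -1 (blue) to 1 (red). The Dnajb9 row is blue throughout with a lowest value of -0.83 (Trib3), and the highest value is 0.79 (Hspa5 and Xbp1).

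Among 12831 genes with a mean log2 CPM of at least 1, those that followed Atf4 most closely within groups over the 10 libraries were Kif3c (r = 0.967), Med26 (0.965) and Selenon (0.954). For Dnajb9 they were Gm37773 (0.994), Zfp326 (0.991) and Hipk3 (0.990), and for Hspa5 they were Pcyox1 (0.970), Atp6v1b2 (0.968) and Chid1 (0.960). Kif3c, Med26 and Selenon were called lower and Gm37773, Zfp326 and Hipk3 higher under both anti-miRs by edgeR, as were Atf4 and Dnajb9. Of the genes nearest Hspa5, Chid1 was called lower under antimir409 (edgeR adjusted p = 0.0352) and not under antimir501 (0.0869). Pcyox1 and Atp6v1b2 were called under neither. Of all tested genes 15.6% were called higher and 12.2% lower under antimir409, and 17.6% and 15.4% under antimir501. Each r is among the highest of 12831 over 10 libraries that share depth and GC slope, and the part of either was not tested.

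The other genes of both responses were called in both directions. Of 167 listed genes 164 were tested. Under antimir409 34 were called higher (20.7%, against 15.6% of all tested genes) and 28 lower (17.1%, against 12.2%), with a median log2 fold change of -0.042. Under antimir501 42 were higher (25.6%, against 17.6%) and 29 lower (17.7%, against 15.4%), with a median of -0.026. After the GC and length trend was removed 4 were higher (2.44%, against 3.99% of all tested genes) and 7 lower (4.27%, against 3.46%) under antimir409, and 11 were higher (6.71%, against 5.51%) and 12 lower (7.32%, against 4.63%) under antimir501. The counts of the single lists that follow, of 8 to 25 tested genes each, stand against the same shares of all genes. Fgf21, Srp54a and Hspb1 had too few counts to be tested.

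Upstream, the genes of 4 sensors did not pass the test. Eif2ak3 (PERK) had log2 fold changes of -0.05 and -0.03, Eif2ak4 (GCN2, which senses uncharged tRNA) -0.03 and -0.06, Ern1 (IRE1) 0.06 and 0.13 and Atf6 0.07 and 0.11 under antimir409 and antimir501. Of the 13 genes of this list 1 was higher and 3 lower under antimir409 and 2 higher and 3 lower under antimir501, among them the protease gene Mbtps2, which cleaves ATF6 (0.35 under antimir409 and 0.39 under antimir501), and the ATF6 relative Atf6b (-0.25 and -0.25). Neither was called after the GC and length trend was removed, with 0.01 and 0.02 for Mbtps2 and -0.05 and -0.02 for Atf6b. Among the 14 genes of eIF2 and its regulators, 4 were higher and 5 lower under antimir409 and 5 higher and 5 lower under antimir501. Eif2s1, the eIF2 subunit that is phosphorylated, rose by 0.24 and 0.27 (edgeR adjusted p = 0.00195 and 0.000566), and so did Dnajc3, an inhibitor of the eIF2 kinases (0.24 and 0.26), and Impact, an inhibitor of GCN2 (0.28 and 0.36). Ppp1r15a, the stress-induced phosphatase subunit that removes the phosphate from eIF2, fell under antimir409 (-0.19, edgeR adjusted p = 0.0448) and had -0.08 under antimir501, which did not pass. Ppp1r15b, its constitutive counterpart, rose under antimir501 (0.15, edgeR adjusted p = 0.0119) and had 0.11 under antimir409, which did not pass. The difference between the anti-miRs was called by edgeR for neither gene. After the GC and length trend was removed Impact (0.12) and Ppp1r15b (0.12) were still called under antimir501 alone, while Eif2s1 (-0.04 and -0.05), Dnajc3 (0.05 and 0.05) and Ppp1r15a (-0.05 and 0.07) were not called.

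Downstream of ATF4, of the 8 transcription factors 1 was higher and 2 lower under each anti-miR. Atf5, an ATF4 target and close relative, fell by 0.28 under antimir409 and 0.23 under antimir501 (edgeR adjusted p = 0.00117 and 0.00325), and Cebpg, a dimer partner of ATF4, rose by 0.29 and 0.29 (0.000808 and 0.000527); neither was called after the GC and length trend was removed. Atf3 and Cebpb did not pass. Among the 25 tested amino acid and redox targets, 2 were higher and 6 lower under each anti-miR. The transporter subunit Slc3a2 fell (-0.15 and -0.11), and the glutamine transporter Slc38a2 (0.27 and 0.18) and the lipoprotein receptor Vldlr (0.14 and 0.20) rose. None of these 3 was called after the GC and length trend was removed, with -0.05 and 0.00047 for Slc3a2, 0.12 and 0.02 for Slc38a2 and -0.05 and -0.0046 for Vldlr. The direction of Ddit4, a growth inhibitor, depended on that trend. It was called lower under antimir409 (-0.16, edgeR adjusted p = 0.0265) and had -0.05 under antimir501, a difference that edgeR did not call. After the removal it had 0.05 under antimir409, which did not pass, and was called higher under antimir501 (0.16, edgeR adjusted p = 0.00371). The serine synthesis enzyme Psat1 (0.02 and -0.05) and the cystine transporter Slc7a11 (0.31 and 0.23) did not pass.

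**Figure D5:**
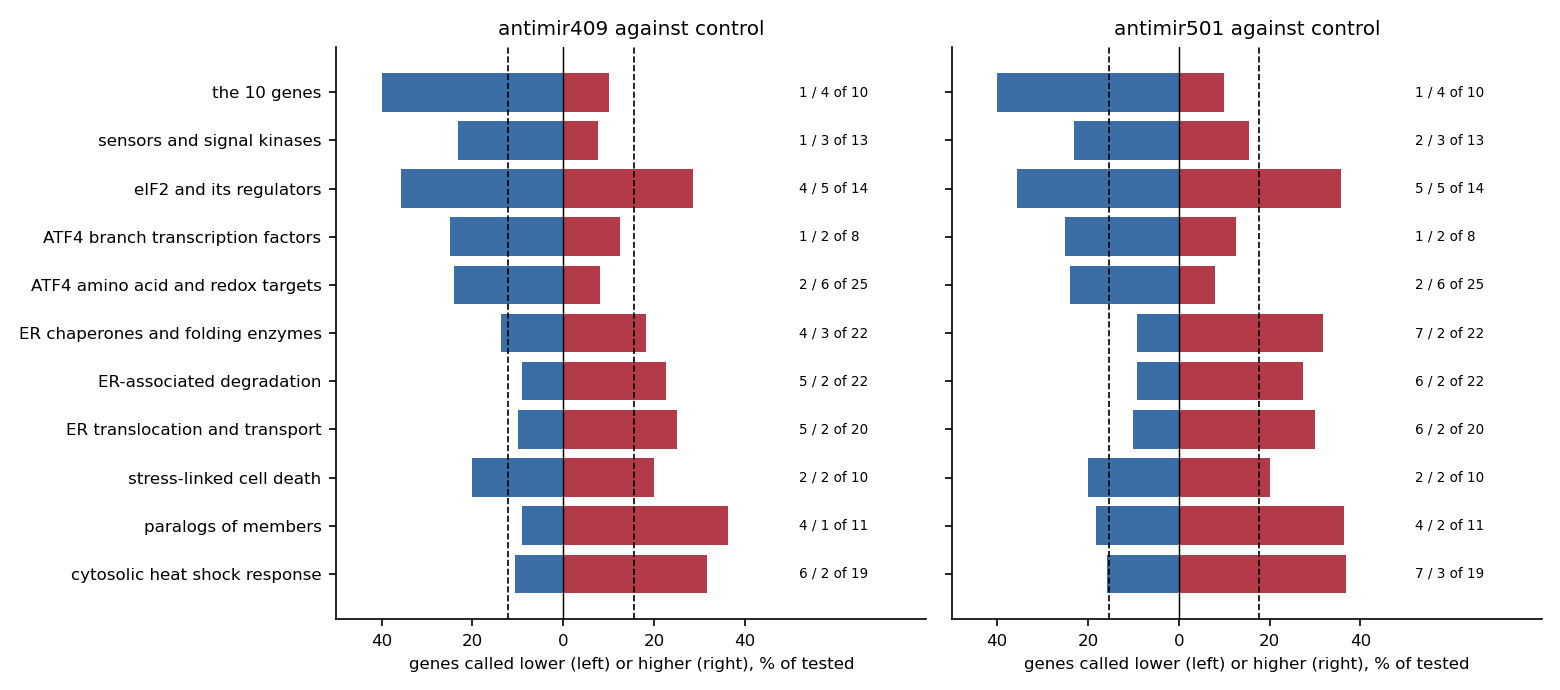
Bars give, for each gene list, the percentage of tested genes called higher (right) and lower (left) against control by edgeR, with the counts as higher / lower of tested, and dashed lines mark the shares over all tested genes (15.6% higher and 12.2% lower under antimir409, 17.6% and 15.4% under antimir501). The 10 genes hold 1 higher and 4 lower calls in each comparison, and the ER translocation list holds 5 higher and 2 lower under antimir409 and 6 and 2 under antimir501, of 20 tested.

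In the ER, of 22 chaperones and folding enzymes 4 were higher and 3 lower under antimir409, and 7 were higher and 2 lower under antimir501. Calnexin (Canx, 0.29 under antimir409 and 0.32 under antimir501) and the BiP relative Hspa13 (0.43 and 0.50) rose, and Creld2, a secreted target of ATF6, fell (-0.24 and -0.30). After the GC and length trend was removed Hspa13 was still called under antimir501 (0.13, edgeR adjusted p = 0.0192) and not under antimir409 (0.10), and Canx (0.06 and 0.08) and Creld2 (-0.06 and -0.12) were not called. Hsp90b1, Calr, Pdia4, Hyou1, Sdf2l1 and Manf, all textbook ER stress targets, did not pass in either comparison, with log2 fold changes between -0.08 (Hyou1) and 0.11 (Hsp90b1). The sign of Hsp90b1 turned with the removal, from 0.07 and 0.11 before it to -0.15 and -0.14 after it. Only after the removal was it called lower (edgeR adjusted p = 0.00734 and 0.0107), and the same held for the call of Hspa5. Of 22 genes of ER-associated degradation 5 were higher and 2 lower under antimir409, and 6 were higher and 2 lower under antimir501. The ubiquitin-conjugating enzyme Ube2j1 rose by 0.38 and 0.40 (edgeR adjusted p = 7.6e-05 and 2.78e-05) and was still called after the trend was removed (0.26 and 0.27). Its partner ligase Syvn1 fell (-0.16 and -0.17), Edem1, a lectin that picks clients, rose (0.20 and 0.17), and so did Erlec1, another lectin (0.28 and 0.34), while Sel1l and Derl1 did not pass. Syvn1 (-0.02 and -0.02), Edem1 (0.09 and 0.06) and Erlec1 (-0.0032 and 0.01) were not called after the removal. Of 20 translocation and transport genes 5 were higher and 2 lower under antimir409, and 6 were higher and 2 lower under antimir501. They included Ssr3 (0.37 and 0.37) and Spcs3 (0.31 and 0.40), while the channel subunit Sec61a1 (-0.07 and -0.07) did not pass. After the GC and length trend was removed Ssr3 (0.09 and 0.06) and Spcs3 (0.0014 and 0.05) were not called, and the list held 1 higher and 1 lower call under antimir409 and 3 and 2 under antimir501. Kdelr2, a receptor that returns BiP to the ER, rose under antimir501 (0.20, edgeR adjusted p = 0.0101, and 0.19 after the removal, still called) and had 0.13 under antimir409, which did not pass.

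Of 10 genes of stress-linked cell death 2 were higher and 2 lower under each anti-miR. The survival factor Bcl2 rose by 0.43 under antimir409 and 0.38 under antimir501 (edgeR adjusted p = 0.00136 and 0.0028), also after the GC and length trend was removed (0.31 and 0.26), and so did Pmaip1, a death factor (0.35 and 0.51), which was not called after the removal. Bbc3, which CHOP can raise, had -0.27 and -0.27 and did not pass. Among 11 paralogs of the 10 genes 4 were higher and 1 lower under antimir409, and 4 were higher and 2 lower under antimir501. Sesn3 rose (0.17 and 0.11; edgeR adjusted p = 0.00509 and 0.0498), as did Dnajb4 (0.28 and 0.32) and Creb1 (0.53 and 0.56), while Sesn1 and Trib2 did not pass. Creb1 was still called after the GC and length trend was removed (0.15 and 0.14), and Sesn3 (0.0027 and -0.06) and Dnajb4 (0.04 and 0.05) were not. Trib1 fell under antimir501 (-0.35, edgeR adjusted p = 0.0196) and had -0.07 under antimir409, which did not pass. The difference between the anti-miRs was not called by edgeR, and the call under antimir501 ended after the removal (-0.23). Hspa8 (0.0087 and 0.00076) has processed copies that may share its reads, so its value is uncertain. Of 19 tested genes of the cytosolic heat shock response 6 were higher and 2 lower under antimir409, and 7 were higher and 3 lower under antimir501. The co-chaperone Dnaja1 (0.37 and 0.41) and the heat shock factor Hsf2 (0.37 and 0.42) rose. Of the inducible members, Dnajb1 fell (-0.14 and -0.19), and the near-identical copies Hspa1a and Hspa1b, whose reads cannot be cleanly divided, did not pass. Dnaja1 (0.09 and 0.10), Hsf2 (-0.18 and -0.22) and Dnajb1 (-0.05 and -0.09) were not called after the trend was removed.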

How the data were processed

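RNA of 10 libraries was measured (4, 4 and 2 per group). Per the labels, libraries were made from polyadenylated RNA with an unstranded TruSeq kit and read single-end. The submitters' processing notes name FastQC 0.11.5, STAR 2.5.2b, featureCounts, Subread 1.5.1 and mm10; annotation release and handling of multi-mapped reads are not given in the sources used here. The deposited files hold raw counts per Ensembl gene. The authors also deposited comparison tables with log2 fold changes and adjusted p-values, per the file headers, used here for Ddit3, Sesn2, Dnajb9 and Herpud1; their normalized signal columns, deposited by the authors, were not used.

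Gene symbols, exons and 3' UTRs came from GENCODE vM21 (48349 of 48709 identifiers matched). Counts were filtered with filterByExpr, scaled by TMM and tested with edgeR 4.0.16 (robust quasi-likelihood, 3 groups, all 10 libraries, no covariate; R 4.3.3). Log2 CPM used a prior count of 2. Alternatives used DESeq2 1.42.0, limma 3.58.1 and sva 3.50.0, and the script was tested on simulated data. The GC and length trend was fitted in each library with splines (5 degrees of freedom) and entered as an offset, which can take out true differences between cells as well. Calls that appear only after its removal rest on the fitted trend. The genes, lists, tests and this correction were chosen with earlier results of these data known. Named genes outside the 10 were picked by role, plus up to 2 per list with the smallest p against control. Same-numbered anti-miR libraries deviated together (r = 0.375, 0.164, 0.121 and 0.306 for replicates 1 to 4), so the block was used as a further fit of the comparison between the anti-miRs. The block was also fitted against control, where this ground is weaker. Control replicates 1 and 2 had r = 0.293 and 0.042 with the same-numbered antimir409 libraries and 0.359 and 0.211 with those of antimir501. No libraries of a group agreed within sampling noise (chi-square per degree of freedom 1.65 to 12.0). The labels give no batch.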

Additional observations from a re-analysis of the deposited data

Results flagged for a closer look

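In 9 cases a single antimir501 library stood apart from the other 3 of its group in log2 CPM (gap over range above Dixon's 95% critical value), out of 130 gene and group combinations tested for 65 genes; chance gives about 1 in 20. Among the 10 genes these were Xbp1 in replicate 4 (6.25, the lowest) and Sesn2 in replicate 1 (5.43, the highest). Among the other named genes replicate 1 stood apart for Atf5 (6.54), Canx (9.19) and Creb1 (6.12), replicate 2 for Manf (5.75) and replicate 4 for Ern1 (4.21), Sec61a1 (7.29) and Atf6b (6.49). No antimir409 library did so, and control, with 2 libraries, could not be examined in this way.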

How the results depend on the processing

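Control had only 2 libraries. The calls against control changed without control replicate 1, a fit that leaves 1 control library. They also depend on the treatment of GC content and length and on a surrogate variable. The surrogate variable gave the fewest genes called, and the causes were not tested. RLE scaling, DESeq2, limma-voom, both filters, 2-group fits and the block left the count of the 10 genes called against control within 1.5 times, as did upper-quartile and total-count scaling. For all genes and for the 10 genes, the numbers called under antimir409 were 1258 and 3 with the GC and length correction, 1297 and 2 with the replicate block added to it, and 936 and 0 with 1 surrogate variable. Under antimir501 they were 1712 and 3, 1834 and 3, and 692 and 0. Leaving out 1 library gave 1302 to 5111 genes and 0 to 7 of the 10 under antimir409, and 1800 to 6075 genes and 1 to 6 of the 10 under antimir501, the lowest without control replicate 1. Between the anti-miRs the genes called were 3 with DESeq2, 42 without a filter, 1 in a 2-group fit, 252 with the replicate block, 1 with the GC and length correction, 189 with both, 11 with the surrogate variable and 0 to 1 with 1 library left out, never with one of the 10.

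The replicate numbers pair control with only 2 libraries of each anti-miR, and 7 of 10 libraries correlated best with their own number. With the replicate block 1 of the 10 genes was higher and 5 lower in each comparison against control, Sesn2 being added; no other call of the 10 changed. Signs turned only for values that did not pass, apart from Atf4. Under antimir409 these were Xbp1 (0.050 with the GC and length correction, 0.057 with the block added) and Sesn2 (0.0064 with the surrogate variable). Under antimir501 they were Atf4 (0.015 with the correction), Trib3 (0.029 with the correction, 0.074 with the block added, 0.19 with the surrogate variable), Asns (0.0094 with the surrogate variable) and Xbp1 (0.00046 with the block, 0.10 with the correction, 0.11 with both, 0.021 with the surrogate variable, and -0.036 to 0.016 with 1 library left out). Between the anti-miRs they were Hspa5 (-6.5e-05 with limma-voom, -0.00052 with the stricter filter, -0.0054 with the surrogate variable), Asns (0.0052 with the correction, 0.0049 with the block added) and, with 1 library left out, Asns (-0.026 to 0.011), Chac1 (-0.11 to 0.0034), Ddit3 (-0.064 to 0.0044), Herpud1 (-0.022 to 0.039) and Hspa5 (-0.015 to 0.020). Dnajb9 kept its sign under both anti-miRs in every alternative, but lost its call with the surrogate variable (0.21 and 0.29, edgeR adjusted p = 0.16 and 0.0825). Under antimir409 its call also ended with the block and correction together (0.20, edgeR adjusted p = 0.0541) and without control replicate 1, as given above. Upper-quartile scaling called 2233 genes higher and 3074 lower under antimir409 and 2540 and 3607 under antimir501. Trib3, at 48 to 109 counts per library, is the gene whose depth limits precision most.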
